A study of Mus musculus with 9 samples.

Results

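Golgi genes were followed in mouse brain microvascular endothelial cells deprived of oxygen, glucose and serum. They were taken as the genes whose cellular component annotation in the deposited table holds the Golgi apparatus or the Golgi membrane and not the mitochondrion. The table lists 675 genes, of which 45 hold either Golgi term. Leaving out 5 with the mitochondrion term, and 7 more that the rule names by symbol or prefix (Abca1, Chac1, Dipk2a, Gcnt3, Plk3, Slc16a13 and Slc35c1), gave 33 Golgi genes. Of these, 25 had a mean of at least 1 FPKM (a level scaled to gene length and library size) over all libraries and entered the tests, and 8 did not.

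The Golgi apparatus receives proteins and lipids from the endoplasmic reticulum, trims and extends their sugar chains, sulfates proteoglycans, and sorts cargo to the cell surface, endosomes and lysosomes. Small GTPases of the Arf family recruit the vesicle coats that carry this traffic, and golgins and actin or microtubule adaptors hold the stacked cisternae in place. In endothelium this route delivers integrins, receptors and membrane proteases to the surface that faces the blood and the matrix. An annotation of this kind also takes in proteins that act mainly elsewhere, and 9 of the 33 genes hold the nucleus term as well.

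The cells were wild type, and the labels call them a cell line. They were incubated for 1, 3 or 6 h in 1 of 3 ways: oxygen-glucose deprivation without fetal bovine serum plus 3 µM obacunone, a limonoid found in citrus (OGD+Oba), the same deprivation without obacunone (OGD), or normoxia. With 9 libraries for 9 groups there were no replicates, and the sequencing depth is unknown. In the authors' deposited table every one of the 675 listed genes is at least 2-fold apart, in OGD over normoxia, at 6 h. The 6 h values below therefore describe genes picked on that comparison. Whether the choice also drew on the libraries of 1 h and 3 h is not given in the sources used here. A gene's levels at neighbouring times can also run together. Of 20 endothelial markers only Slc2a1 and Flt1 were listed, and the other markers were not analysed here. Flt1, the VEGF receptor 1 gene, lay between 0.05 and 0.68 FPKM in the 9 libraries, and Slc2a1, the glucose transporter of the blood-brain barrier, rose at 3 h (1.57 ± 0.09, limma adjusted p = 6.19e-06). Of markers of other cells, the neuronal Tubb3 fell (-1.33 ± 0.20, adjusted p = 0.00136), the astrocytic Aldoc missed the test (0.30 ± 0.21, adjusted p = 0.241), and the lists for pericytes, fibroblasts, microglia and oligodendrocytes had no gene in the table. Their part in the results below was not tested.

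At 3 h, 12 of the 25 tested Golgi genes fell and 5 rose under OGD (limma, adjusted p under 0.05 over the 580 genes tested). Over all 580 genes, 24.8% fell and 31.2% rose. The median log2 difference of OGD against normoxia at 3 h was -0.52 for the tested Golgi genes and 0.01 for all genes tested. Without a floor on the level, 13 of the 33 fell and 5 rose, against 21.6% and 26.4% of the 675 genes. With the 12 genes that the rule leaves out put back, 15 of 36 tested genes fell (41.7%) and 9 rose (25%), and the median was -0.34. That count was added after the data were seen. The genes that fell code for among others, a Golgi Arf GTPase, an atypical small GTP-binding protein, surface receptors, a membrane protease and ubiquitin ligase parts. Those that rose code for an RNA demethylase, an actin nucleator, a sorting adaptor of the trans-Golgi network, a Polycomb subunit and an epithelial transcription factor. In bulk RNA, fewer cells that express a gene and less RNA per cell cannot be told apart.

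Differences with an SE come from a limma fit that gives OGD its own effect at every time and lets obacunone act alike throughout. The spread thus comes from OGD+Oba and OGD libraries, with normoxia taken to vary as much, and a fault in a lone normoxia library cannot be told apart from an effect of OGD. By the rule of at least 2-fold, which needs no test and here as below is taken on the log2(FPKM + 1) scale, 5 tested Golgi genes were lower and 0 higher under OGD at 3 h, where 8.45% of all tested genes were lower and 14.8% higher. Both deprived libraries of 3 h lay below all 3 normoxia libraries for 13 of the 25 genes and above them for 7, against 38.8% and 37.2% of all tested genes.

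**Figure D1:**
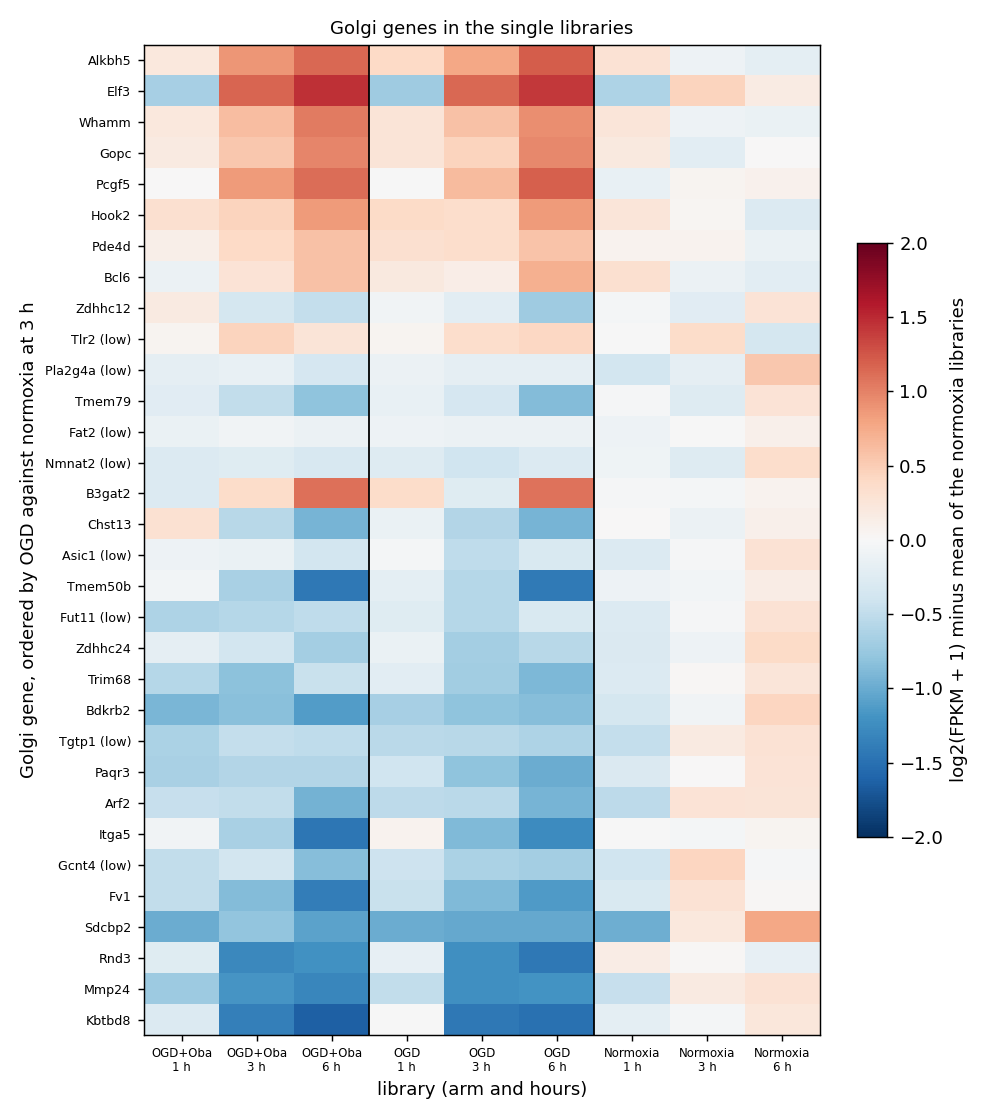
Colour map of 32 of the 33 Golgi genes (rows, ordered by OGD minus normoxia at 3 h) in the 9 libraries (columns), as log2(FPKM + 1) minus the mean of the gene's 3 normoxia libraries. The OGD+Oba and OGD columns of 3 h and 6 h hold the strongest colours, red for the uppermost rows (Alkbh5, Elf3) and blue for the lowest (Kbtbd8, Mmp24, Rnd3); rows marked low had a mean under 1 FPKM.

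At 1 h no Golgi gene was 2-fold apart between OGD and normoxia, where 0.69% of all tested genes were higher and 3.1% lower. The limma fit called 0 of the 25, against 3.79% of all tested genes called lower and 0% called higher. At an unadjusted p under 0.05 it called 0 as well, against 9.48% lower and 1.38% higher. The log2 differences ran from -0.31 to 0.39, with a median of 0.00. Bdkrb2 and Rnd3, at -0.31 each, stood furthest below normoxia. Both deprived libraries of 1 h lay below all 3 normoxia libraries for 7 of the 25 genes and above them for 2, against 16.7% and 10.7% of all tested genes.

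Taken over the 3 times in an additive fit of arm and time, 0 Golgi genes passed in either direction (limma; 3.1% of all tested genes rose and 1.03% fell). At an unadjusted p under 0.05, 7 were lower and 0 higher, against 10.5% and 15% of all tested genes. In that fit an OGD effect that differs between times adds to the error, and the effect at 1 h was near 0. Without the 1 h libraries it called 14 Golgi genes lower and 6 higher, against 35.9% and 39.5% of all tested genes. That fit leans on the 6 h libraries by which the table was chosen, so these calls are a description.

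**Figure D2:**
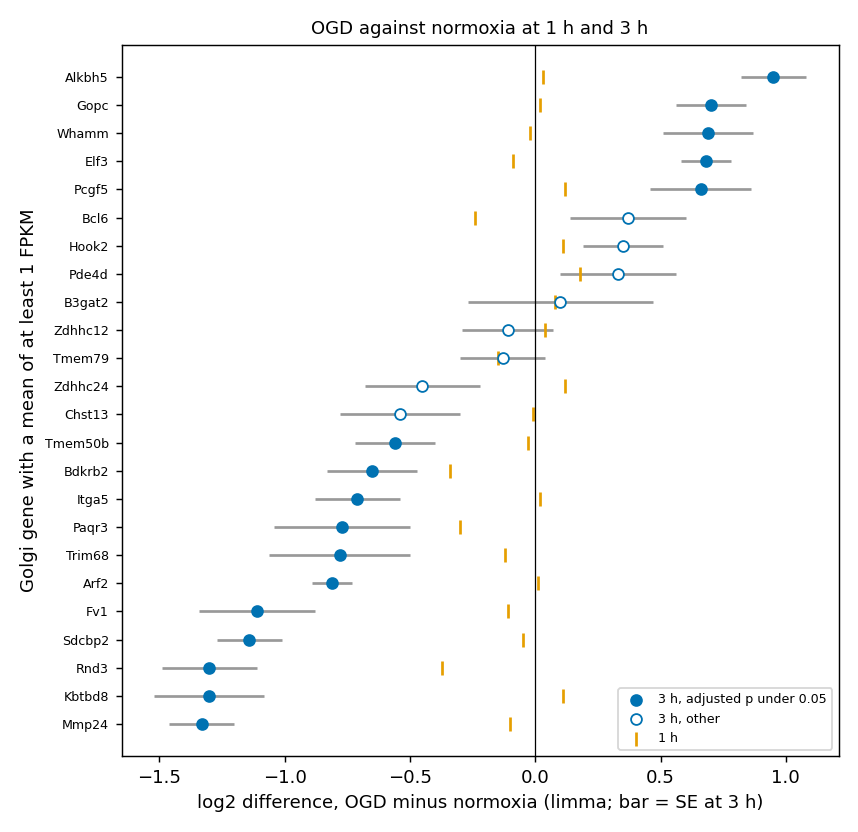
Log2 difference of OGD minus normoxia at 3 h (circles, with the SE of the limma fit as bars) and at 1 h (ticks) for 24 of the 25 tested Golgi genes. Filled circles passed an adjusted p of 0.05 at 3 h; they run from -1.33 for Mmp24 to 0.95 for Alkbh5, while the 1 h ticks lie between -0.37 and 0.18.

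Among proteins of membrane traffic and cell shape, Arf2 and Rnd3 fell. Arf2, a GTPase that recruits vesicle coats to Golgi membranes (NCBI gene 11841, chromosome 11, 103966725 to 103985350, GRCm38.p6), had the highest mean level of the 33, 228 FPKM. At 1, 3 and 6 h, the order of all triplets below, it stood at 215, 210.4 and 152 FPKM in OGD+Oba and 205, 202 and 154 in OGD, against 205, 357 and 352 in normoxia. At 3 h the deprived libraries stood near the 1 h normoxia level, and at 6 h both lay below all normoxia libraries. Its log2 difference at 3 h was -0.81 ± 0.08 (SE, adjusted p = 0.00017).

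Rnd3, an atypical small GTP-binding protein that loosens actin stress fibres (gene 74194, chromosome 2, 51130439 to 51149111), was at 12.1, 5.39 and 5.75 FPKM in OGD+Oba and 12.9, 5.66 and 4.78 in OGD, against 16.2, 14.9 and 12.9 in normoxia. Here the deprived libraries lay below every normoxia library at each time. At 1 h the margin was very small, with OGD at 12.85 FPKM against 12.89 FPKM in normoxia at 6 h. Rnd3 fell at 3 h by 1.30 ± 0.19 (log2 scale, adjusted p = 0.000915).

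Sdcbp2, or syntenin-2, a PDZ scaffold that binds phosphoinositides (gene 228765, chromosome 2, 151572294 to 151590005), was at 33.8, 39.0 and 32.0 FPKM in OGD+Oba and 33.9, 33.2 and 33.1 in OGD. In normoxia it was at 34.3, 79.0 and 117 FPKM. The deprived libraries were level through the 6 h, and the normoxia libraries were the ones that moved. Sdcbp2 fell by 1.14 ± 0.13 on the log2 scale relative to normoxia at 3 h (adjusted p = 0.00033), and 1 of the 3 h deprived libraries lay within the range of normoxia.

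Of 8 tested Golgi genes that also hold the plasma membrane term, 6 fell and 1 rose at 3 h, and of all 129 tested genes with that term 42 fell and 35 rose. Mmp24, a membrane-anchored matrix metalloprotease (gene 17391, chromosome 2, 155775342 to 155818367), was at 37.2, 27.1 and 24.6 FPKM in OGD+Oba and 44.0, 26.0 and 26.7 in OGD, against 44.9, 70.4 and 76.3 in normoxia. Its log2 difference at 3 h was -1.33 ± 0.13 (adjusted p = 0.000155). A gene on the opposite strand overlaps its exons, which shares 13% of its 31-base words; whether counting used the strand is not given in the sources used here.

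Itga5, the alpha chain of the fibronectin receptor (gene 16402, chromosome 15, 103344286 to 103366791), was at 29.6, 19.6 and 10.8 FPKM in OGD+Oba and 32.7, 16.4 and 12.4 in OGD, against 30.9, 30.2 and 32.2 in normoxia. In Itga5 the normoxia libraries were level and the deprived ones moved, the reverse of Sdcbp2. It fell at 3 h by 0.71 ± 0.17 (log2 scale, adjusted p = 0.011). Bdkrb2, the bradykinin B2 receptor, through which bradykinin raises endothelial permeability, was at 6.82, 7.27 and 5.76 FPKM in OGD+Oba and 8.32, 7.39 and 7.17 in OGD, against 10.6, 13.0 and 18.8 in normoxia. All 6 deprived libraries were under all 3 normoxia libraries, and the log2 difference at 3 h was -0.65 ± 0.18 (adjusted p = 0.0185).

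Parts of the ubiquitin system were among the genes that fell. Kbtbd8, a substrate adaptor of CUL3 ubiquitin ligases (gene 243574, chromosome 6, 95117880 to 95129793), was at 5.38, 2.01 and 1.49 FPKM in OGD+Oba and 6.67, 1.87 and 1.76 in OGD, against 5.73, 6.55 and 8.08 in normoxia. At 1 h the arms overlapped, and from 3 h the deprived libraries were far below. Its log2 difference at 3 h was -1.30 ± 0.22 (adjusted p = 0.00211). Trim68, a ubiquitin ligase of the TRIM family, was at 2.73, 2.13 and 3.06 FPKM in OGD+Oba and 3.77, 2.40 and 1.97 in OGD, against 3.59, 4.61 and 5.55 in normoxia. Trim68 just passed at 3 h, with -0.78 ± 0.28 (adjusted p = 0.0489). Its call ended without the 6 h libraries (adjusted p = 0.089), without a floor (0.0635), with median-ratio scaling (0.0612) and in limma without trend (0.051).

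Paqr3, a Golgi membrane protein that anchors the sterol sensor complex of Scap and SREBP there and holds Raf kinase at the Golgi, was at 1.5, 1.62 and 1.62 FPKM in OGD+Oba and 1.99, 1.25 and 0.97 in OGD, against 2.22, 2.97 and 3.77 in normoxia. Every deprived library was below every normoxia library. Paqr3 fell by 0.77 ± 0.27 on the log2 scale (adjusted p = 0.0424), a call that ended without the 6 h libraries (0.103) and with a pseudocount of 0.1 (0.0544); its exons overlap those of Bmp2k on the opposite strand.

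Fv1 and Tmem50b fell as well. Fv1, a restriction factor derived from an endogenous retroviral gag gene, was at 1.62, 1.02 and 0.42 FPKM in OGD+Oba and 1.70, 1.01 and 0.69 in OGD, against 1.97, 3.51 and 2.74 in normoxia. These levels are low, and its difference at 3 h was -1.11 ± 0.23 on the log2(FPKM + 1) scale (adjusted p = 0.00527), which understates low genes. The authors' deposited table gives Fv1 a log2 ratio of -1.74 there. Tmem50b, a multi-pass membrane protein, was at 19.6, 12.7 and 6.96 FPKM in OGD+Oba and 17.8, 13.5 and 7.08 in OGD, against 19.1, 19.7 and 22.7 in normoxia. It fell at 3 h by 0.56 ± 0.16 (log2 scale, adjusted p = 0.0187; 0.068 without the 6 h libraries), and its 6 h libraries stood lower still.

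The 5 Golgi genes that rose at 3 h did so by less than 2-fold. Alkbh5, an oxygen-dependent demethylase of N6-methyladenosine in RNA and a target of HIF-1 in human cells (gene 268420, chromosome 11, 60537683 to 60558512), rose most. It was at 31.4, 50.5 and 60.5 FPKM in OGD+Oba and 35.5, 46.7 and 63.4 in OGD, against 33.2, 25.1 and 23.2 in normoxia. The arms overlapped at 1 h and were apart from 3 h, with a log2 difference of 0.95 ± 0.13 at 3 h (adjusted p = 0.000891).

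Gopc, a PDZ protein of the trans-Golgi network that in human cells steers the chloride channel CFTR to lysosomes (gene 94221, chromosome 10, 52337024 to 52382124), was at 16.8, 21.8 and 29.7 FPKM in OGD+Oba and 17.8, 20.4 and 29.6 in OGD, against 17.0, 12.6 and 14.7 in normoxia. It rose by 0.70 ± 0.14 on the log2 scale at 3 h (adjusted p = 0.00528). Whamm, which nucleates branched actin on membranes between the endoplasmic reticulum and the Golgi, was at 5.73, 7.84 and 10.9 FPKM in OGD+Oba and 5.92, 7.68 and 10.03 in OGD, against 5.84, 4.38 and 4.26 in normoxia. Both thus stood near normoxia at 1 h and above all normoxia libraries at 3 h. Whamm rose by 0.69 ± 0.18 (adjusted p = 0.0164).

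The other genes that rose, like Alkbh5, hold the nucleus term. Elf3, an ETS transcription factor known from epithelia (gene 13710, chromosome 1, 135253574 to 135258472), was at 41.6, 149.6 and 185 FPKM in OGD+Oba and 40.3, 148 and 178 in OGD, against 42.9, 91.5 and 75.0 in normoxia. Its 3 h and 6 h libraries stood above those of 1 h in every arm, furthest in the deprived ones, and it was higher by 0.68 ± 0.10 at 3 h (adjusted p = 0.000891). Elf3 is 1 of 14 epithelial markers, of which Cldn4 alone was also listed, at 109, 271 and 308 FPKM in OGD, against 138, 97.6 and 60.9 in normoxia. Whether cells of epithelial type had a part in the level of Elf3 was not tested. Pcgf5, a subunit of a Polycomb complex, was at 3.84, 7.63 and 9.48 FPKM in OGD+Oba and 3.77, 6.48 and 9.97 in OGD, against 3.35, 3.98 and 4.13 in normoxia. Pcgf5 rose by 0.66 ± 0.20 at 3 h (adjusted p = 0.0253; 0.084 without the 6 h libraries).

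Among the 33 Golgi genes, enzymes that build and modify sugar chains, the work most typical of the Golgi, were few and low. The table lists only genes at least 2-fold apart at 6 h, and Gcnt3, which the rule leaves out, is not counted here. Chst13, a chondroitin 4-O-sulfotransferase, was at 3.56, 1.52 and 0.94 FPKM in OGD+Oba and 2.37, 1.45 and 0.93 in OGD, against 2.72, 2.41 and 2.96 in normoxia. Both deprived libraries of 3 h lay under all normoxia libraries, yet its log2 difference of -0.54 ± 0.24 missed the test (adjusted p = 0.0897). Gcnt4, which adds a branching N-acetylglucosamine to O-glycans, had too low a mean for the test and was at 0.69, 0.84 and 0.32 FPKM in OGD+Oba and 0.78, 0.53 and 0.49 in OGD, against 0.81, 2.20 and 1.34 in normoxia. In the fit without a floor on the level, Gcnt4 was called lower at 3 h. The fucosyltransferase gene Fut11 lay between 0.16 and 1.19 FPKM. B3gat2, a glucuronyltransferase of the HNK-1 epitope, was at 0.35, 1.10 and 2.49 FPKM in OGD+Oba and 1.10, 0.37 and 2.46 in OGD, against 0.60, 0.58 and 0.70 in normoxia. Its order of OGD and OGD+Oba turned between 1 h and 3 h, it was not called at 3 h (adjusted p = 0.812), and other genes hold 30.7% of its 31-base words, Smap1 among them, on the opposite strand.

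The palmitoyltransferase genes Zdhhc12 and Zdhhc24, whose enzymes attach fatty acids to proteins, did not pass at 3 h. Zdhhc24 was at 4.96, 4.25 and 3.24 FPKM in OGD+Oba and 5.22, 3.24 and 3.63 in OGD, against 4.54, 5.34 and 7.89 in normoxia, with a log2 difference of -0.45 ± 0.23 (adjusted p = 0.121). Zdhhc12 was at 20.5, 13.9 and 12.7 FPKM in OGD+Oba and 17.1, 15.3 and 10.6 in OGD, against 17.4, 15.2 and 21.9 in normoxia. Its arms met at 3 h (-0.11 ± 0.18, adjusted p = 0.583) and parted at 6 h. Tmem79, a membrane protein known from the skin barrier, was at 9.58 FPKM in OGD+Oba and 10.8 in OGD at 3 h. In normoxia it was then at 11.4 FPKM (-0.13 ± 0.17, limma adjusted p = 0.514). Both deprived libraries of 3 h lay below all normoxia libraries for Tmem79 and Zdhhc24, but not for Zdhhc12. Tmem79 shares 43% of its 31-base words with Glmp on the opposite strand.

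Hook2, a linker of membranes and centrosomes to microtubules, was at 12.1, 13.3 and 18.1 FPKM in OGD+Oba and 12.8, 12.5 and 18.0 in OGD, against 11.5, 9.86 and 7.70 in normoxia. All 6 deprived libraries were above all 3 normoxia libraries, but the log2 difference at 3 h was 0.35 ± 0.16 (adjusted p = 0.0876). Bcl6, a transcriptional repressor, was at 2, 2.93 and 3.87 FPKM in OGD+Oba and 2.72, 2.57 and 4.31 in OGD, against 3.07, 2 and 1.82 in normoxia. Its deprived libraries were under normoxia at 1 h and above it at 3 h, within the range of the normoxia libraries at 3 h, and its difference at 3 h was 0.37 ± 0.23 (adjusted p = 0.209). Pde4d, a phosphodiesterase of cyclic AMP, was at 1.12, 1.58 and 1.94 FPKM in OGD+Oba and 1.45, 1.48 and 1.90 in OGD, against 1.04, 1.04 and 0.79 in normoxia. Each deprived library lay above each normoxia library, and the test was missed with 0.33 ± 0.23 (adjusted p = 0.241).

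The 8 Golgi genes under the floor had means of 0.0578 to 0.916 FPKM and no single value above 2.20 FPKM. Besides Gcnt4 and Fut11 they were the proton-gated channel gene Asic1, the cytosolic phospholipase A2 gene Pla2g4a, the NAD synthesis gene Nmnat2, the atypical cadherin gene Fat2, Tlr2 and the interferon-induced GTPase gene Tgtp1. Asic1 was at 0.82 FPKM in OGD+Oba and 0.40 in OGD at 3 h, against 0.97 in normoxia, and Tgtp1 at 0.69 and 0.61, against 1.68. All 8 had log2 differences below 0 for OGD against normoxia at 3 h, from -1.06 for Gcnt4 to -0.01, and 7 of the 8 did at 6 h, all but Tlr2. Of the 31-base words of Tgtp1, 84.4% occur in other genes, foremost its near copy Tgtp2, and the counting may split reads between them.

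By 6 h, at which the genes of the table were chosen, OGD levels were above normoxia for 10 of the 33 Golgi genes and below it for 23. Of the 25 tested, 6 were at least 2-fold higher and 14 lower, beside 38.6% and 29.7% of all tested genes. In limma 16 were lower and 9 higher, beside 44.7% and 52.9%. The median log2 difference was -1.10 for the Golgi genes and 0.78 for all genes. Sdcbp2 was lowest, at -1.79, and Alkbh5 highest, at 1.41. Median-ratio scaling put the median of all tested genes at 6 h at 0.50 and left 1 Golgi gene at least 2-fold higher. These values describe the selection, and no test is read from them.

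The time courses within each arm show that the genes that fell differed in which arm moved. For the 12 that fell at 3 h, the median log2 difference of 6 h against 1 h was -0.68 in OGD, with a range of -1.47 to -0.03, and 0.51 in normoxia, with a range of -0.31 to 1.74. Under OGD 4 of the 12 were at least 2-fold lower at 6 h than at 1 h, as were 20.5% of the 132 other genes that fell at 3 h and 6.72% of all tested genes. In normoxia 1 of the 12 was at least 2-fold higher at 6 h than at 1 h, as were 8.33% of those 132 genes and 3.62% of all tested genes. The medians of the 132 were -0.68 in OGD and 0.46 in normoxia, and the choice of genes that were lower under OGD bears on all these values. Sdcbp2 and Arf2 lay at the normoxia end of this span, with -0.03 and -0.41 in OGD against 1.74 and 0.77 in normoxia. Kbtbd8, Itga5 and Rnd3 lay at the other, with -1.47, -1.33 and -1.26 in OGD and 0.43, 0.06 and -0.31 in normoxia. Time in culture and differences between libraries cannot be told apart here.

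**Figure D3:**
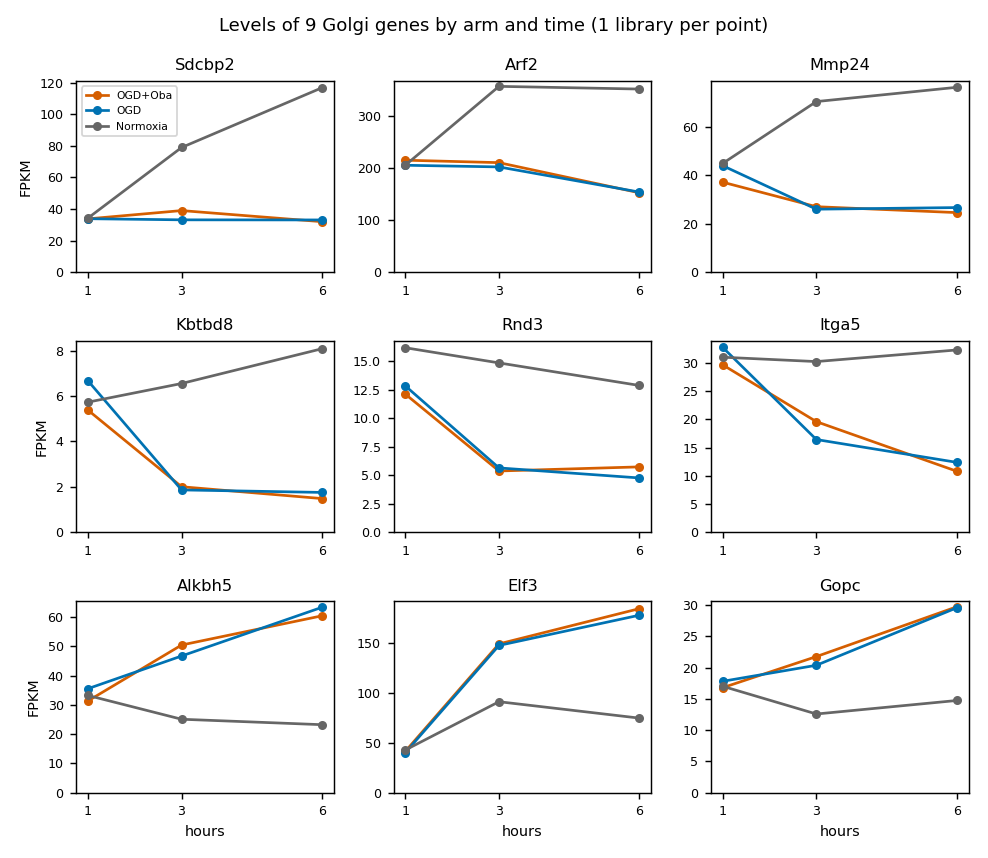
Levels in FPKM (vertical axes from 0) of 9 Golgi genes at 1, 3 and 6 h in OGD+Oba, OGD and normoxia, with 1 library per point. In the upper row normoxia climbs away from the deprived arms (Sdcbp2 to 117 FPKM at 6 h). The deprived arms of Arf2 and Mmp24 also end lower than at 1 h (Mmp24 at 26.7 FPKM under OGD). In the middle row the deprived arms drop (Kbtbd8 to 1.76 FPKM under OGD), and in the lower row they climb (Alkbh5 to 63.4 FPKM under OGD).

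OGD+Oba against OGD asks whether obacunone changed the levels of Golgi genes in deprived cells. No Golgi gene passed the test over the 3 times (limma, 0 of 25), where 0.69% of all tested genes were called higher and 0.345% lower. At an unadjusted p under 0.05 the count was also 0, beside 0.69% and 1.03% of all tested genes. The effects ran from -0.18 for Bdkrb2 to 0.16 for Chst13 on the log2 scale, with SEs of 0.29 to 0.45 and an unadjusted p of at least 0.608. Their 95% intervals reached from -1.03 to 0.98. In this fit, changes of up to about that size in a single gene thus could not be told from 0. It is the additive fit of arm and time, where an OGD effect that differs between times adds to the error. These SEs, p-values and intervals therefore hold more than the spread between OGD+Oba and OGD libraries. On the log2(FPKM + 1) scale, 0 of the 25 were 2-fold apart at any time, where at 1 h 0.862% of all tested genes were higher and 2.07% lower with obacunone, at 3 h 0.517% and 0.69%, and at 6 h 0.517% and 0.345%. That scale holds down low genes: for B3gat2, at 0.35 to 1.10 FPKM in these libraries at 1 h and 3 h, the authors' deposited table gives log2 ratios of OGD+Oba over OGD of -1.53 at 1 h and 1.55 at 3 h.

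The median size of the log2 difference between OGD+Oba and OGD was 0.14, 0.09 and 0.11 at 1, 3 and 6 h for the Golgi genes. For all tested genes it was 0.17, 0.14 and 0.11. The differences between OGD and normoxia had median sizes of 0.11, 0.69 and 1.15 in the Golgi genes, and share the OGD libraries with the obacunone differences. Chst13 and Paqr3 had among the highest mean differences with obacunone, at 0.16 and 0.12. For Chst13 this rests on 1 h, at 3.56 FPKM in OGD+Oba against 2.37 in OGD, while at 3 h and 6 h the values nearly met. Paqr3 was lower in OGD+Oba at 1 h and higher at 3 h and 6 h. Among the lowest means, Bdkrb2 and Kbtbd8 stood at -0.18 and -0.12, and Bdkrb2 was below OGD at each time by 0.25, 0.02 and 0.27 on the log2 scale.

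**Figure D4:**
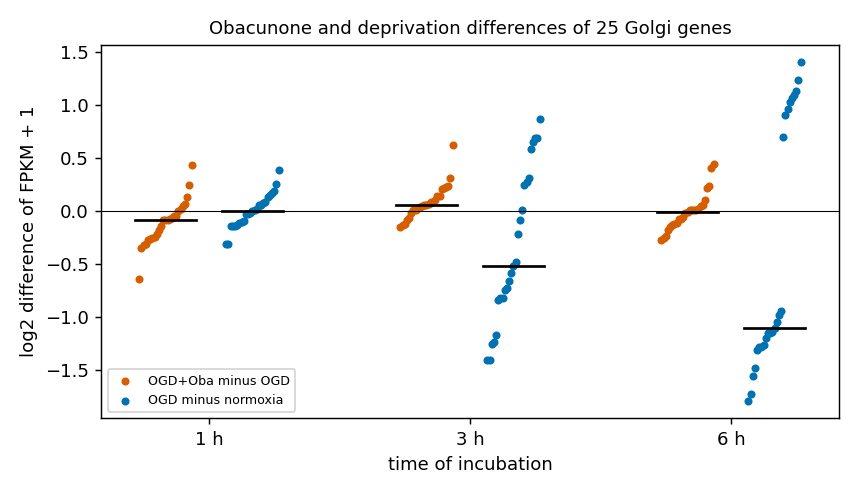
Log2 differences of the 25 tested Golgi genes at 1, 3 and 6 h for OGD+Oba minus OGD (left of each pair) and OGD minus normoxia (right); each point is a gene and the bar is the median. The obacunone differences lie between -0.64 and 0.62 with medians from -0.08 to 0.06, while those of OGD spread from -1.79 to 1.41 by 6 h.

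Their other annotations divide the Golgi genes further. Of the 33, 17 hold the term for an integral membrane protein (51.5%, against 21.8% of the 675 genes). Among the 12 of these that were tested, 7 fell and 0 rose at 3 h; of all 115 tested genes with that term, 40 fell and 24 rose. Of the 8 tested Golgi genes that hold the nucleus term, 3 fell and 3 rose (Elf3, Alkbh5 and Pcgf5), and of all 244 tested nuclear genes 46 fell and 106 rose. The median log2 difference at 3 h was -0.62 for the integral membrane Golgi genes and -0.33 for all tested genes with that term, and these sets overlap.

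A wider set of 697 genes known from the Golgi and the secretory route was sorted into 12 lists by role. Only 19 of them were in the table, 10 of these Golgi genes by the annotation used here, so 23 of the 33 Golgi genes are in none of these lists. Of 14 tested, 4 rose and 3 fell at 3 h, shares near those of all tested genes (31.2% and 24.8%). Too few to set against that background, 0 were called among the 2 tested glycosylation genes, the 2 of proteoglycan synthesis and the 2 palmitoyltransferases. Gcnt3 was in none of the lists. Those that rose included Arl4a, Lpin1 and Plin3, and those that fell were Arf2, Rnd3 and Paqr3. Arl4a, an Arf-like GTPase at the plasma membrane and nucleus, was at 6.44, 9.63 and 10.8 FPKM in OGD against 6.29, 2.98 and 2.28 in normoxia, the direction opposite to Arf2. The lists of vesicle coats, cargo receptors, golgins, secretory stress genes and Golgi autophagy had no gene in the table and were not analysed here.

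Promoters, from 250 bases before to 50 after the start of transcription, were found in RefSeq (GRCm38.p6) for 31 of the 33 Golgi genes, 38 promoters in all. They were searched on both strands for the core of the HIF response element (ACGTG or GCGTG), for ACGTGGC, the Golgi stress element bound by TFE3 in human cells, which contains the first core, for TGACTCA (AP-1; its reverse complement is TGAGTCA) and for GTAAACA (FOXO). An HIF core was in 57.9% of the Golgi gene promoters, in 58.9% of those of all listed genes and in 43.8% of all 32851 promoters. Median GC content was 59% for the Golgi genes, 60.3% for the listed genes and 52.7% for all. By direction, 3 of the 5 genes that rose and 8 of the 11 with a promoter that fell held a core, as did 4 of the 7 not called and 5 of the 8 under the floor. Counted by gene, a core was in 64.5% of the Golgi genes with a promoter and in 64.5% of all listed genes with one. ACGTGGC was in 2.63% of Golgi gene promoters, in that of Trim68 alone, and in 2.58% of all. AP-1 was found in Sdcbp2 alone (2.63%, against 5.2% of all) and FOXO in Sdcbp2 and Pcgf5 (5.26%, against 3.65%). The start used for Sdcbp2 lies inside the span given for the gene, so neither of its motifs is upstream of that span.

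Stretches upstream of the start are shown for 3 genes that fell at least 2-fold at 3 h, for Trim68 with its Golgi stress element, and for a pair of genes that rose. They run 5′ to 3′ on the strand of the gene, with the letters of the motifs above, on either strand, in capitals. CACGC is GCGTG and TGTTTAC is GTAAACA read on the other strand. The stretch of Sdcbp2 lies upstream of the start used for its promoter, but inside the span given for the gene (151572294 to 151590005). The positions are chr2:151572513-151572622 (plus) for Sdcbp2, chr6:95117730-95117840 (plus) for Kbtbd8, chr2:51149191-51149291 (minus) for Rnd3, chr7:102687347-102687447 (minus) for Trim68, chr11:60537563-60537663 (plus) for Alkbh5 and chr10:52382125-52382234 (minus) for Gopc.
Sdcbp2: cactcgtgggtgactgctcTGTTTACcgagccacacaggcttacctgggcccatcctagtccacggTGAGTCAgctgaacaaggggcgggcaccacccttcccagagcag
Kbtbd8: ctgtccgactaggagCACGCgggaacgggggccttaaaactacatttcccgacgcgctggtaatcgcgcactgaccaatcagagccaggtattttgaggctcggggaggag
Rnd3: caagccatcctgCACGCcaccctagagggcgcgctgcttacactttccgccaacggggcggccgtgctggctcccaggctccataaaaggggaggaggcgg
Trim68: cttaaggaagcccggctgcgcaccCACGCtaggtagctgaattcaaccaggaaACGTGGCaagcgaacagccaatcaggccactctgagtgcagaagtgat
Alkbh5: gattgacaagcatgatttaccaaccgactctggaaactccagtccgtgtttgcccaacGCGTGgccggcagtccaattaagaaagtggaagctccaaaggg
Gopc: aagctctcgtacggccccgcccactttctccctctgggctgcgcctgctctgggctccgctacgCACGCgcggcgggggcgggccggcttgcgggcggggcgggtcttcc

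No core was found in the promoters of Sdcbp2, Itga5 and Mmp24, which fell, or of Elf3 and Whamm, which rose. A match of letters is a description and not a bound site.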

How the data were processed

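RNA was measured by sequencing in 9 libraries, 1 per group. The authors deposited FPKM per gene with 2 decimals, per the file headers, and 6 columns of their log2 ratio between libraries, whose computation is not given in the sources used here. HISAT2 2.0.4 and GRCm38 are named in the submitters' processing notes. The lowest FPKM above 0 was 0.01 and no counts were used, so depth is unknown and no counting interval was computed.

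Tests ran on log2(FPKM + 1) for the 580 genes whose mean level reached 1 FPKM. limma 3.58.1 in R 4.3.3, with trend, was fitted on all of them, with Benjamini-Hochberg adjustment over all and calls at an adjusted p under 0.05. Residual and prior degrees of freedom were 2 and 5.48 for the fit per time, and 4 and 21.27 for the additive one. Both were run on simulated data in which the OGD effect was equal at all times and normoxia varied like the deprived libraries. Those runs do not check either assumption for the real libraries. With no repeated cultures, p-values reflect only how these libraries vary.

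The Golgi genes, lists and tests were chosen with earlier results of these data known. Named were genes 2-fold apart at 1 h or 3 h, the 8 highest and 8 lowest at 3 h, the 5 of highest level in normoxia, the 3 highest and 3 lowest for obacunone, and the first of each role list, 22 genes; rules on obacunone calls and turned signs added none. The other 11, such as Trim68, Tmem50b, Tmem79 and B3gat2, were named after their values were seen. Alternatives were a size of 1.5-fold, no floor or 5 FPKM, a pseudocount of 0.1, median-ratio scaling over the listed genes, the authors' log2 ratio, limma without trend or robust, leaving out each time, 4 further Golgi terms, and, chosen after seeing the data, every gene of either Golgi term. Shared sequence was counted as 31-base words over GENCODE vM21 transcripts. Counts cover all Golgi genes and list genes, of which a few are not reported here by name.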

Additional observations from a re-analysis of the deposited data

How the results depend on the processing

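The 12 Golgi genes lower and 5 higher at 3 h in limma stayed within 1.5 times those counts under every alternative run except that every gene of either Golgi term gave 9 higher, and they could not be fitted without the 3 h libraries. Without the 6 h libraries 13 of the 17 were called, and of the 17, 16 remained with median-ratio scaling, 16 with a pseudocount of 0.1 and 15 without trend. At 3 h the count at least 2-fold lower was 11 with 1.5-fold and 3 with a floor of 5 FPKM, against 5, and 5 genes were higher with 1.5-fold, against 0. At 6 h median-ratio scaling gave 1 higher, against 6, and a floor of 5 FPKM gave 9 lower by size, against 14, and 10 in limma, against 16. For obacunone, 1 gene was called apart by size at 1 h and 1 at 3 h with 1.5-fold, with a pseudocount of 0.1 and with the authors' log2 ratio, against 0. In the additive fit, robust limma called 1 gene lower, and leaving out the 1 h libraries gave 14 lower and 6 higher, against 0. Fewer genes pass a higher floor; the cause of the other changes was not tested. Every gene of either Golgi term, an alternative chosen after seeing the data, gave 1 lower at 1 h by size and 1 in limma, against 0, 2 higher at 3 h by size, against 0, 10 higher at 6 h by size, against 6, and 14 in limma, against 9, and 1 higher in the additive fit, against 0; its genes are more in number. Adding 4 Golgi terms made 38 genes, with 29 tested, and moved no count by over 1.5 times. No paired analysis was possible because each group holds 1 library and the labels carry no replicate numbers to pair by; the additive fit does match the arms by time. Values under 1 FPKM are limited by their 2 decimals and unknown depth.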
